A study of Mus musculus with 4 samples.

Results

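Peaks in repeats and other regions of high input were studied in a chromatin immunoprecipitation sequencing (ChIP-seq) experiment with an antibody to Tet1, an enzyme that oxidises 5-methylcytosine in DNA. The members were chosen by rule from the pooled peak lists of both genotypes. A peak was taken if it lay on mitochondrial DNA or on an unplaced or random contig, or if the local background in its input (chromatin sequenced without antibody) was at least 4 times the genome-wide level. The rule took 217 of 620 listed peaks, 127 of 247 in the Tet1 knockout (KO) list and 90 of 373 in the wild-type (WT) list. The members thus made up 51.4% of the KO list (exact binomial 95% interval 45 to 57.8) and 24.1% of the WT list (19.9 to 28.8). Both intervals treat peaks as independent, which neighbouring peaks are not, so they are too narrow. Input level and fold enrichment chose the members, so their values are given as a description.

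The groups were 1 Tet1 ChIP library from KO spermatogonia, 1 from WT spermatogonia, 1 KO input and 1 WT input. All came from strain 129 mice at 3 months of age, and per the labels 20000 cells were collected by flow sorting. Spermatogonia are the mitotic germ cells of the testis. The labels give neither the deleted part of Tet1 nor the number of animals, and peak lists check neither the genotype nor the cell type by its markers. With 1 library per group there is no replicate check, no comparison of the genotypes as conditions was possible, and every interval covers counting error only.

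Repeated sequence is a known source of strong signal in ChIP-seq. Where the genome holds more copies of a sequence than the assembly does, reads from all copies pile up on the few assembled places, in ChIP and input alike. Mouse chromosomes are acrocentric, and their assembled sequence begins close to centromeric satellite DNA. Ribosomal RNA genes, mitochondrial DNA and its nuclear copies are other well-known places of this kind. Which repeat family lies under a peak was not analysed here, except for a comparison of annotated gene windows beside or on the peaks.

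On chromosome 6 the sequence itself could be compared. RefSeq windows (GRCm38.p6) that run from 250 bases before to 50 after an annotated gene start were available for genes within the arrays of peaks near Rn4.5s, a 4.5S RNA gene. The windows of Gm40367 (chr6:47662342-47662641), Gm36327 (chr6:47675332-47675631), Gm40364 (chr6:47679657-47679956) and a start of Gm40369 (chr6:47653742-47654041), all on the plus strand, were identical over all 300 bases. The window of Gm52861, a long noncoding RNA gene (chr6:47738587-47738886, plus strand), further along the chromosome, was identical in 297 bases, with 2 mismatches and 2 bases without a partner counting both sequences. The pair of lines shows the shared window and its relative, 5′ to 3′, because they show repeated sequence between these peaks; neither window overlaps a peak. Capitals mark bases that differ or that have no partner in the other window.
Gm40367: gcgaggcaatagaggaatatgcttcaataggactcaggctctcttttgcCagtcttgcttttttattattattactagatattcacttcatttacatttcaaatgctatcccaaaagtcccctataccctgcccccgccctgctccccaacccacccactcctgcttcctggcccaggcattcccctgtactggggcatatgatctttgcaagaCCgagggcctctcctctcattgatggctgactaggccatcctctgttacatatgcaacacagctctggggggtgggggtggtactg
Gm52861: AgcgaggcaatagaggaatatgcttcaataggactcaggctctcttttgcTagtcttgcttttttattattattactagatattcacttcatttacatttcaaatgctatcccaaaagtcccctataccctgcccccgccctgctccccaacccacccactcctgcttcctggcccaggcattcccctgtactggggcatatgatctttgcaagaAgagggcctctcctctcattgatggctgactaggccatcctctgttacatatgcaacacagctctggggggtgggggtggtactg

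The identical windows started 8600, 12990 and 4325 bp apart. These distances were 1.97, 2.98 and 0.991 times the median distance of 4366 bp between neighbouring WT summits in the same stretch. The next WT summit lay 1301 bp after the window of Gm40369, 1358 bp after that of Gm40367, 1422 bp after that of Gm36327 and 1366 bp after that of Gm40364. At Gm52861 the next summit came 1379 bp after the window start in KO and 1400 bp after it in WT. In the first stretch the copies thus lay close to whole multiples of the peak spacing apart. The window of Gm52861 lay 58930 bp after that of Gm40364, or 13.5 spacings, which is not a whole multiple. Of 10 gene windows in the region, 5 held a run of 150 bases, the tag length in the file headers, that also occurs in another window. These were the 4 identical windows and that of Gm52861, and each shared a run only with the other 4. The count thus restates the likeness given above, and some genes have more than 1 window among the 10. Among all 32817 windows, 3.33% held a run shared with another window. A tag that falls inside such a run has the same letters at each copy, and how tags with several matches were placed is not given in the sources used here.

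Listed folds in these arrays ran from 3.25 to 17.8, on few input tags. A peak is listed only where ChIP exceeds input, so these folds are a description. In the first stretch (chr6:47650704-47685611) the KO list had 1 peak, of 18 tags at the long noncoding RNA gene Gm40371, with 3.3 input tags. The WT list had 8 peaks of 20 to 32 tags, with 2.30 to 7 input tags. None of the 8 was overlapped in KO, where 32.7% of all WT peaks and 80% of all WT members were. The WT summits at Gm40367 (28 tags), Gm40365 (30 tags), Gm36327 (32 tags), Gm40364 (32 tags) and Gm40363 (22 tags), all annotated as protein-coding gene models, lay inside those models. The WT summit of 22 tags at position 47655043 lay inside Rn4.5s itself. A peak list gives no KO value at these places, so no KO/WT ratio can be formed.

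The second stretch (chr6:47739645-47778557) had 7 KO and 7 WT peaks, of which 6 in each list overlapped. The 6 paired KO summits had 26, 72, 32, 65, 32 and 70 tags, and their WT partners had 40, 60, 54, 74, 25 and 67 tags. Lower and higher peaks alternated along the stretch in both genotypes, and the ranges of the genotypes overlapped. Fold enrichment over input ran from 4.52 to 17.8 in KO and from 4.86 to 13.6 in WT. The largest KO fold of all members, 17.8, lay in this stretch at 47763018 to 47763621, on 70 ChIP tags and 5 input tags. Scaled by ChIP depth, the summed KO/WT ratio over the 6 pairs was 1.28 (exact conditional 95% interval 1.09 to 1.503).

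**Figure D1:**
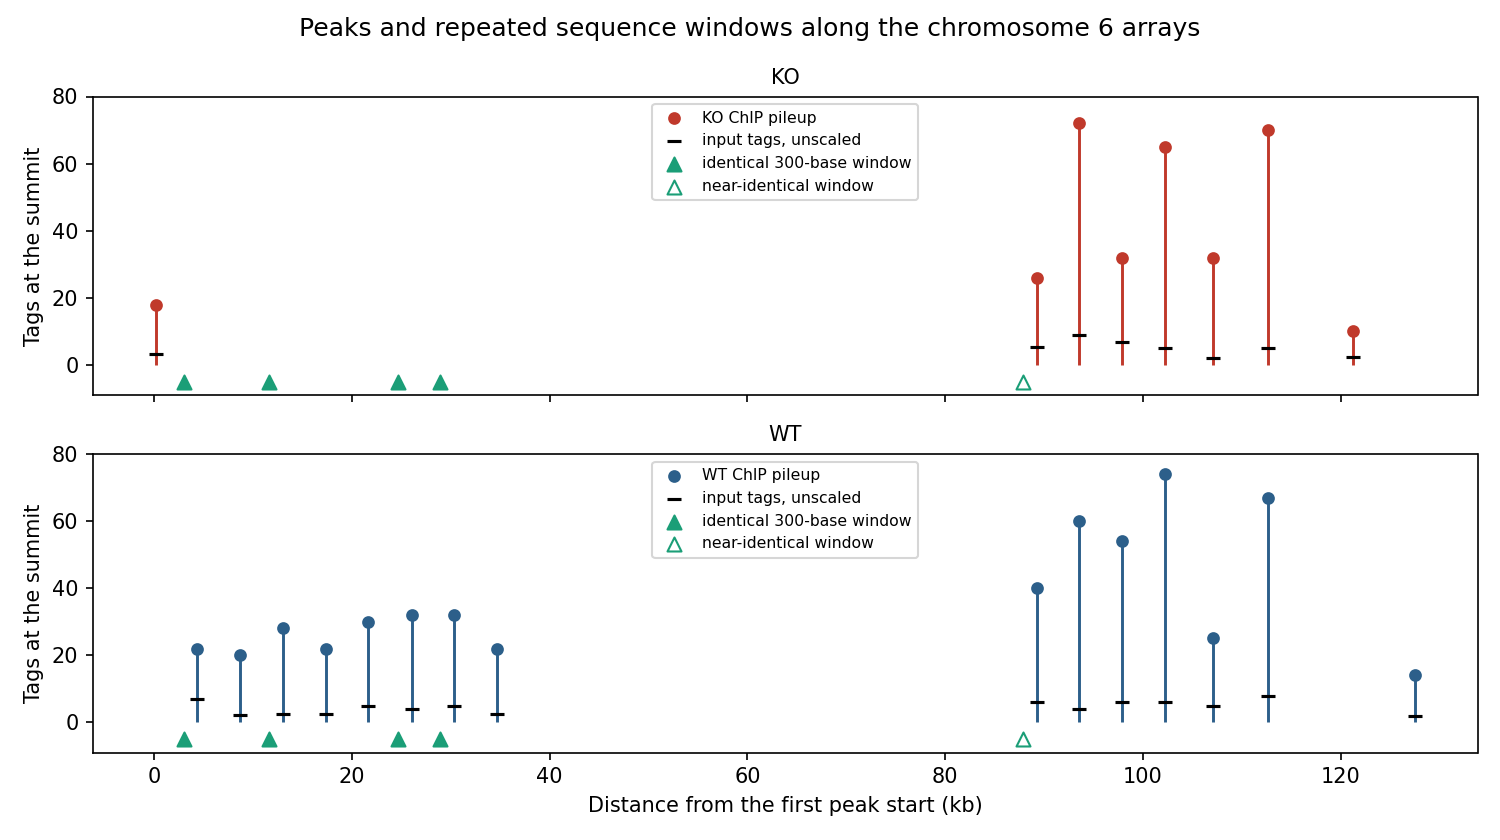
ChIP pileup (points on stems) and unscaled input tags (dashes) at the summit of each peak along the chromosome 6 arrays, KO above WT, against distance from the first peak start in kb; triangles mark the gene windows that are identical over 300 bases (filled) or identical in 297 bases (open). The WT list has 8 regularly spaced peaks of 20 to 32 tags in the first stretch, where KO has 1 of 18 tags, and both lists have 7 peaks in the second stretch.

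The input tags behind each peak could be read back from the deposited values. The local background is the pileup plus 1, divided by the fold enrichment, minus 1, and dividing it by the scaling of the input (0.598 in KO, 0.869 in WT) gives unscaled input tags. These came out whole, within 0.02 tags, for 114 of 127 KO members and 80 of 90 WT members. The other values came from the caller's wider windows of 1000 and 10000 bp, apart from 1 WT peak on contig GL456216 that stood at the genome-wide level. Of the whole values, 30 in KO and 4 in WT could also have come from the 1000 bp window. Across members the pileup ran from 7 to 557 tags in KO (median 142) and from 5 to 559 in WT (median 94). Input tags ran from 0.72 to 553 in KO (median 96.8) and from 0.393 to 550 in WT (median 30.5). The median background was 233 times the genome-wide level in KO and 77.7 times in WT.

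The deposited pileups have an upper limit. Per the file headers 1 tag was kept per position and strand, and tags were extended to 300 bp in KO and 299 bp in WT. No summit could therefore pass 600 tags in KO or 598 in WT. The median member stood at 23.7% of this limit in KO and 15.7% in WT, and the highest at 92.8% in KO and 93.5% in WT. At the limit in both ChIP and input, fold enrichment would be 1.67 in KO and 1.15 in WT, since the larger input was scaled down further in KO.

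**Figure D2:**
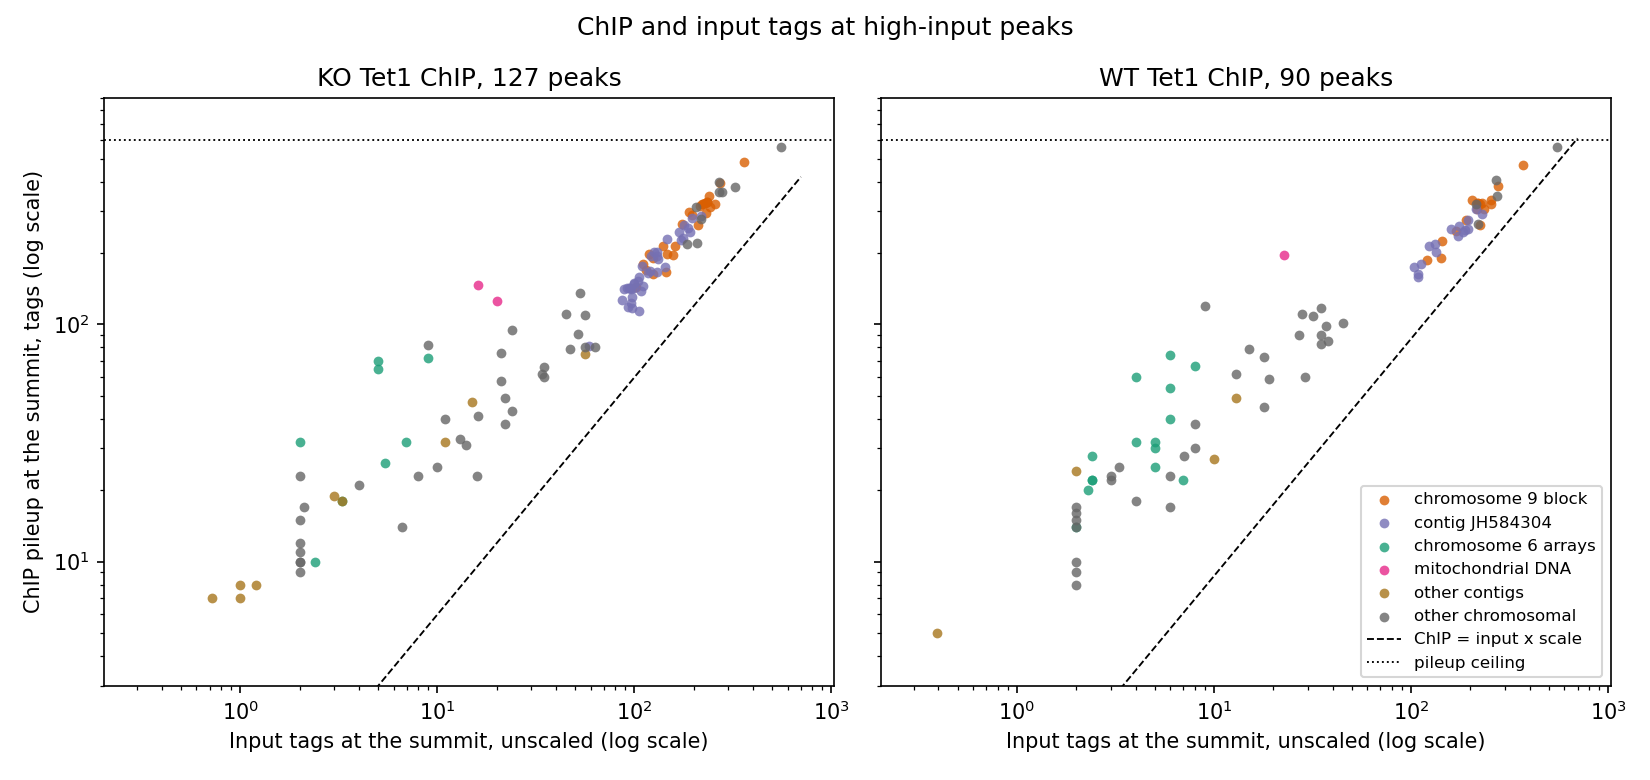
ChIP pileup against unscaled input tags at the summit of each member, KO on the left and WT on the right, both axes logarithmic, coloured by locus; the dashed line is the pileup equal to the scaled input and the dotted line is the limit of the pileup (600 tags in KO, 598 in WT). The chromosome 9 block and contig JH584304 lie above the dashed line at high input, at folds of 1.35 to 2.78. The chromosome 6 arrays and mitochondrial DNA lie further above it, at folds of 3.25 to 17.8.

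Members grouped by position formed 50 loci when gaps of up to 20000 bp were joined. Both lists had members at 26 loci, the KO list alone at 16 and the WT list alone at 8. At 7 of these 24 loci the other list had an overlapping peak whose input was below the 4-fold limit. Of the KO members, 71 of 127 (55.9%, 46.8 to 64.7) were overlapped by at least 1 bp by a WT peak, against 49.4% of all KO peaks. Of the WT members, 72 of 90 (80%, 70.2 to 87.7) were overlapped by a KO peak, against 32.7% of all WT peaks. The share for WT members lay above the background of its list, while the interval for KO members held the background. These backgrounds include the members themselves. Among peaks outside the rule, 42.5% were overlapped in KO and 17.7% in WT, below the member share in each list. Neighbouring peaks are not independent, so these intervals are too narrow.

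The chromosomal locus with the most members was the start of the assembled chromosome 9 (chr9:3000174-3038241), with 27 KO and 17 WT peaks. Its only annotated gene within 3000 bp of a summit was the microRNA gene Mir101c. All 17 WT peaks were overlapped by a KO peak. At these 17 places KO pileups ran from 167 to 485 tags (median 315) and WT pileups from 186 to 468 (median 321). Input tags ran from 114 to 358 in KO (median 223) and from 120 to 372 in WT (median 218). In these tags, not scaled for depth, the ranges of the genotypes overlapped in ChIP and in input. Scaled by ChIP depth, the summed KO/WT ChIP ratio over the 17 places was 1.37 (1.32 to 1.43). The first peak of the block was the highest in both, with 485 ChIP and 358 input tags in KO and 468 ChIP and 372 input tags in WT.

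Site by site the profiles of the block ran in parallel. Over the 17 paired places Pearson's r was 0.991 between KO and WT ChIP (Spearman's rho 0.913) and 0.979 between KO and WT input (rho 0.860). It was 0.965 between KO ChIP and KO input (rho 0.852) and 0.949 between WT ChIP and WT input (rho 0.776). These are descriptions across sites, which share libraries, sequence and copy number. Paired summits lay a median of 13 bp apart (range 0 to 41).

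The 10 KO peaks of the block without a WT partner were lower, with 144 to 346 tags (median 197) and 101 to 239 input tags. Their median fold of 2.38 was close to that of the overlapped KO peaks (2.36). The WT folds in the block ran from 1.35 to 1.88. Why the WT list had no peak at these places was not tested.

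Contig JH584304 had 38 KO and 16 WT peaks between 68771 and 114292. All 16 WT peaks were overlapped. At these places KO pileups ran from 142 to 287 tags (median 227) and WT pileups from 158 to 305 (median 239.5). Input tags ran from 100 to 219 in KO and from 103 to 229 in WT. Pearson's r over the 16 sites was 0.978 between KO and WT ChIP (rho 0.964) and 0.958 between the inputs (rho 0.946). Paired summits lay a median of 5.5 bp apart, but 1140 bp apart at the most distant pair. The 22 KO peaks without a WT partner had 81 to 201 tags (median 142) and a median fold of 2.40. Gene annotation of this contig was not used here.

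**Figure D3:**
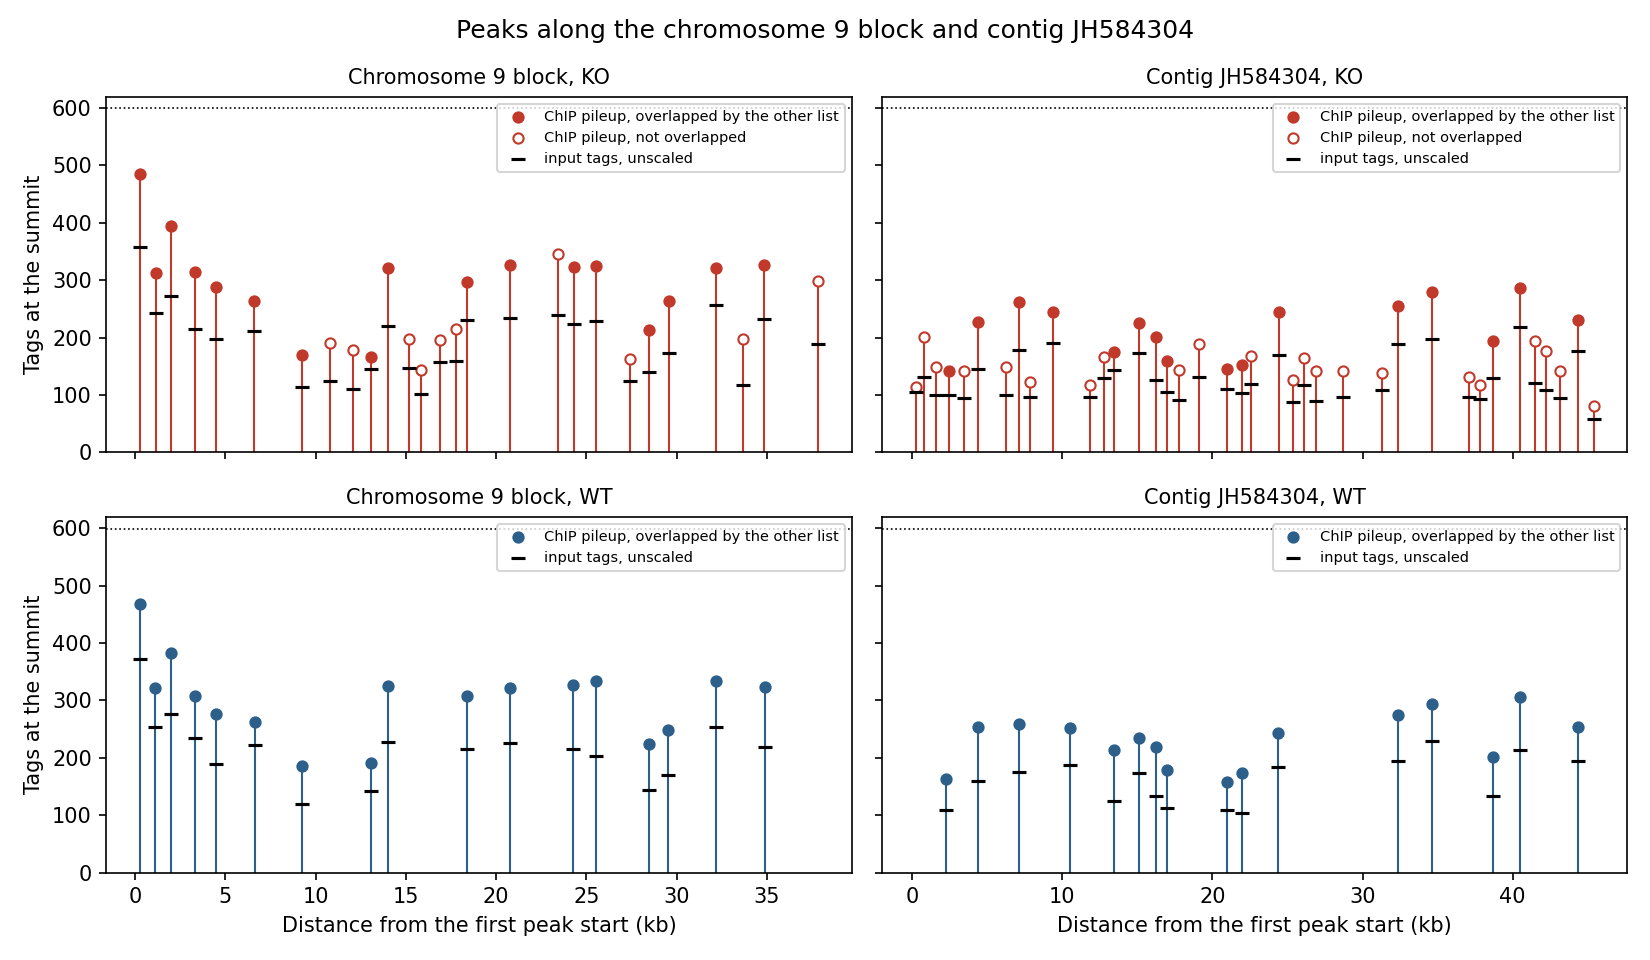
ChIP pileup (points on stems; open where the other list has no overlapping peak) and unscaled input tags (dashes) at each summit of the chromosome 9 block (left) and contig JH584304 (right), KO above WT, against distance from the first peak start in kb. Among places with a peak in both lists, the same ones are high in ChIP and input and in both genotypes. Dotted lines show the limit of the pileup.

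Other loci of very high input had the same pattern. On chromosome 2 (chr2:98662183-98667327) the KO list had peaks of 363, 313 and 557 tags with 270, 205 and 553 input tags. The WT list had peaks of 323 and 559 tags with 213 and 550 input tags. The folds at the highest of these summits, 1.68 in KO and 1.17 in WT, were close to the values set by the limit of the pileup. On chromosome 14 (chr14:19415695-19419475) the KO pileups were 278, 360 and 398 tags with 217, 279 and 270 input tags. The WT pileups there were 348, 264 and 407 tags with 272, 220 and 269 input tags. In both places unscaled tags differed little between the genotypes where their peaks coincided.

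A fold below 2 was listed for 6 KO members and 38 WT members. Over the whole lists the share was 2.43% in KO and 10.2% in WT, and every peak of this kind in either list was a member. The rule used the fold, so nothing is read from this count.

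Between genotypes, tags at paired members did not follow library depth. The ChIP library was 1.38 times deeper in WT than in KO, while the input was 1.05 times deeper in KO. At the 63 members paired 1 to 1, the summits held 11347 KO and 11780 WT ChIP tags. Scaled by ChIP tags after filtering, the KO/WT ratio was 1.33 (1.29 to 1.36). At the 57 pairs with whole input tags there were 7695 KO and 7653 WT input tags, a scaled KO/WT ratio of 0.953 (0.924 to 0.984). The rule used the input, so its ratio is a description.

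Pairs outside the rule gave another value. At the 51 other pairs the summits held 458 KO and 592 WT ChIP tags, a scaled KO/WT ratio of 1.07 (0.942 to 1.21). The ratio at members was 1.25 times that at other pairs (exact conditional 95% interval 1.10 to 1.41). This interval comes from the tags of these libraries and says nothing of the spread between animals. Both lists had to call a peak for it to enter.

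Single member pairs spread around the sum, with KO/WT ChIP ratios from 0.817 to 1.84 (median 1.33). The interval of the KO/WT ChIP ratio lay above 1 at 39 of 63 member pairs (61.9%) and below 1 at none, against 34.2% and 0% of all 114 pairs, all 39 being members. The count was 16 of 17 in the chromosome 9 block, 12 of 16 on JH584304, 3 of 6 on chromosome 6 and 8 of 24 elsewhere. Low pileups give wide intervals, so pairs of other peaks could seldom show a difference of this size. For the inputs, the interval lay above 1 at 3 pairs and below 1 at 1. Without the chromosome 9 block and JH584304 the summed ChIP ratio was 1.30 (1.24 to 1.37) and the summed input ratio 1.02 (0.9495 to 1.098).

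The scaling carried over into the deposited folds. At the 57 pairs, unscaled ChIP tags per input tag were 1.449 in KO and 1.501 in WT, a KO/WT ratio of 0.965 (0.926 to 1.01). The input was multiplied by 0.598 in KO and 0.869 in WT, factors that differ 1.45-fold. The median fold of all 63 pairs was 2.48 in KO and 1.83 in WT, and the KO fold was the higher in 50 of them. In the chromosome 9 block ChIP tags per input tag were 1.38 in KO and 1.39 in WT, while the median folds were 2.36 in KO and 1.64 in WT. The unscaled KO/WT ratio was not the same in every set. It was 0.962 (0.894 to 1.03) on JH584304 and 1.16 (0.594 to 2.27) in the chromosome 6 array. At the 20 pairs elsewhere it was 0.896 (0.817 to 0.983), from 1.56 ChIP tags per input tag in KO and 1.74 in WT.

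**Figure D4:**
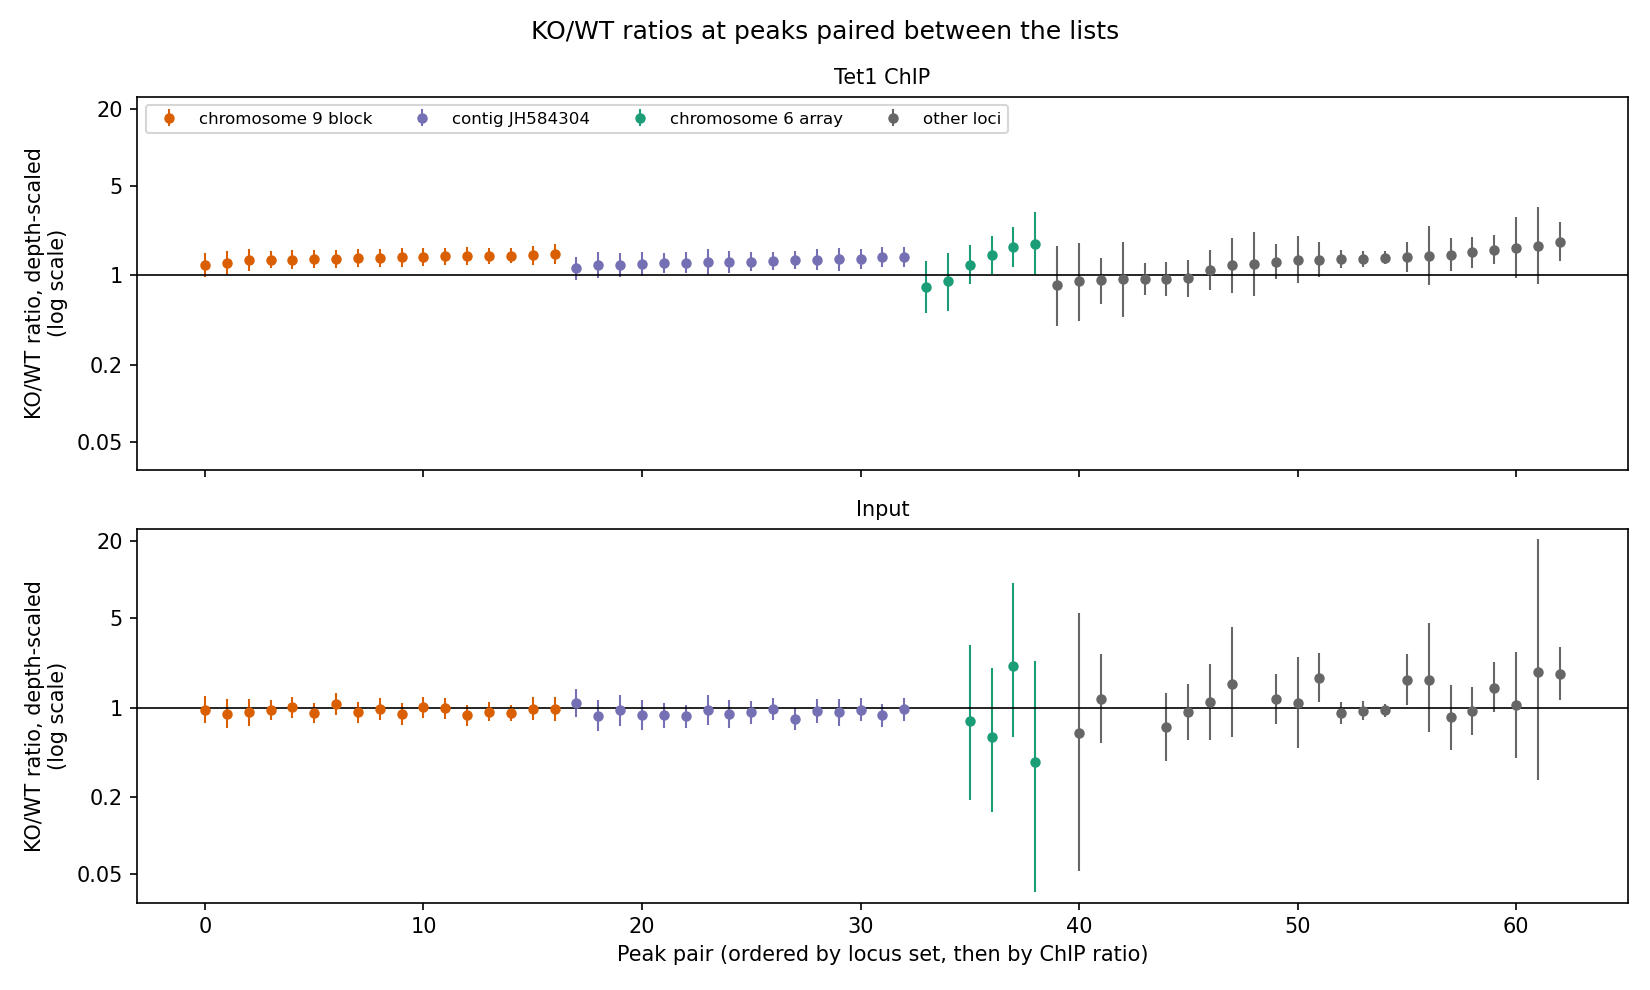
KO/WT ratio of tags at the 63 member pairs, scaled by library depth, for ChIP (top) and for the 57 pairs with whole input tags (bottom); points are ratios, bars exact 95% intervals from counting, and the axis is logarithmic. ChIP ratios of the chromosome 9 block and JH584304 lie between 1.13 and 1.47, while their input ratios lie between 0.816 and 1.09.

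On mitochondrial DNA the folds were above those of the chromosome 9 block and JH584304. The KO list had 2 peaks, of 125 and 146 tags, at folds of 9.72 and 13.9. A single peak of 197 tags, at a fold of 9.54, spanned nearly the whole molecule in WT. Input tags were 20 and 16 in KO and 22.7 in WT. The KO peaks spared 564 bp between 9391 and 9954. There the genes TrnG and TrnR, for transfer RNAs, and ND3, for a subunit of respiratory complex I, were free of KO peaks, and ND4L, another complex I gene, was covered over 73.7% of its length. In all, 32 of 37 mitochondrial genes were covered end to end in KO and 36 of 37 in WT. The KO summits lay at 4081 in ND2 and at 15855, past the last annotated gene. The WT summit lay at 14041 in ND6.

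A nuclear locus with the pseudogenes Gm10222 and Gm10925 (chr1:24611538-24616175), a known nuclear copy of mitochondrial DNA, had 82 tags in KO (fold 13.0) and 120 in WT (fold 13.8). The scaled KO/WT ratio was 0.942 (0.702 to 1.26). The KO and WT summits lay 1308 bp apart within the overlapping peaks, so this ratio does not compare tags at the same position. Its background was 9 input tags in KO and 8.97 in WT.

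At the ribosomal-type locus on chromosome 17 (chr17:39843064-39848556), which holds Rn18s-rs5, a pseudogene related to 18S ribosomal RNA, and the long noncoding RNA gene AY036118, each list had 3 peaks. Pileups were 62, 66 and 23 tags in KO and 90, 79 and 98 tags in WT. Input tags were 34, 35 and 15.9 in KO and 35, 15 and 37 in WT. The 1 pair matched 1 to 1 had a scaled KO/WT ratio of 0.9495 (0.676 to 1.33). Inside Tmem267, a transmembrane protein gene (chr13:119596656-119603058), each list had 4 peaks, with 40, 76, 25 and 14 tags in KO and 45, 111, 28 and 23 tags in WT. Of these, 3 overlapped in each list, and none of their ratios had an interval that excluded 1.

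Among the single peaks of highest pileup outside these groups, the following were in both lists. On chromosome 7 (chr7:145340949-145341434) the pileup was 135 tags in KO and 117 in WT, a scaled ratio of 1.59 (1.23 to 2.05). Input tags there were 53 in KO and 35 in WT, a scaled ratio of 1.44 (0.920 to 2.27). On chromosome 14 (chr14:124801565-124802230) it was 110 in KO and 109 in WT, with 56 KO and 32 WT input tags. On chromosome 18 (chr18:90602127-90602620) it was 111 in KO and 101 in WT, with 45 input tags in each. On chromosome 2 (chr2:182012780-182013201) it was 95 in KO and 90 in WT. On chromosome 16 (chr16:98107393-98107781) it was 80 in KO and 83 in WT, with 63 KO and 35 WT input tags. Inside Cldn34d, a claudin-family gene (chrX:76598719-76599151), it was 79 in KO and 85 in WT. On chromosome 12 (chr12:120028665-120029009) it was 80 in KO and 60 in WT, and both the ChIP ratio of 1.84 (1.30 to 2.61) and the input ratio of 1.83 (1.15 to 2.97) lay above 1. The loci with an input interval above 1 were those on chromosomes 12, 14 and 16.

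The strongest loci with members in the KO list alone had high input. Inside the long noncoding RNA gene Gm33838 (chr9:35305224-35305603) KO had 379 tags with 324 input tags (fold 1.95). On chromosome 12 (chr12:3109796-3110155) it had 220 tags with 209 input tags (fold 1.75). Inside Chl1, a neural cell adhesion gene (chr6:103648984-103649359), it had 219 tags with 185 input tags (fold 1.97). On chromosome 8 (chr8:83756776-83757108) it had 91 tags with 52 input tags, and on contig GL456392 75 tags with 56. The WT list had no overlapping peak at these 5 loci, and gives no WT value there.

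The strongest loci with members in the WT list alone were much lower. They had 59 tags on chromosome 19 (chr19:61331211-61331576), 22 on chromosome 6 (chr6:128760687-128761069), 18 inside the kinase gene Camk1d and 17 on chromosome X (chrX:170005455-170005815). The last, of 16 tags, lay at a group of tRNA genes on chromosome 14 that includes n-TTtgt3. The loci on chromosome 6 and chromosome 14 were overlapped by KO peaks with too little input to be members. Over all loci with members in 1 list, pileups had a median of 40.5 tags (range 9 to 379) at the KO-only loci and 15.5 tags (range 8 to 59) at the WT-only loci.

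The far ends of chromosomes X and Y, at and beside the pseudoautosomal region that they share, had members in both lists, at different places on X and at 1 shared place on Y. On X the KO list had 60 tags at 170758143 and 23 tags at 170880935, while the WT list had 17 tags at 170005455 and 9 tags at 170019538, the last within 3000 bp of Erdr1. On Y both lists had a peak at 90768812 to 90769287, of 17 tags in KO and 25 in WT. The WT list had 2 more on Y, of 15 and 14 tags, at the start of and inside Gm52481, a predicted protein-coding gene. The RefSeq window of Gm52481 (chrY:90742479-90742778, plus strand, GRCm38.p6) overlaps the first of these peaks and is printed to show an internal repeat. Capitals mark GGGGACAG, a motif read off this window after it was seen.
Gm52481: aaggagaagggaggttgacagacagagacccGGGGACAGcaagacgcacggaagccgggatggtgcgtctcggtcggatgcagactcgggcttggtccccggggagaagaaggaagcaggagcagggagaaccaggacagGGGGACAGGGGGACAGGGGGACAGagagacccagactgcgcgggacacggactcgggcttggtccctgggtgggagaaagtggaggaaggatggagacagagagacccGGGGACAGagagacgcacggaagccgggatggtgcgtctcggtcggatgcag
The motif occurred 5 times on the plus strand and 0 times on the minus strand, 3 of them end to end. It was present on either strand in 2.77% of the 32817 windows, and 1 window, this one, held it as often. The window shared no run of 150 bases with another window. A longer stretch recurs within it, just after the first and the last copy of the motif, and is not marked.

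The remaining contigs held few peaks. Contig GL456370 had 6 KO peaks of 8 to 47 tags and 3 WT peaks of 24 to 49 tags, with 2 overlapping in each list. The random contig GL456216 had 2 KO peaks of 7 tags each and 1 WT peak of 5 tags, none overlapping. These last entered by position alone, since their background was 1.73 to 2.41 times the genome-wide level in KO and at that level itself in WT. The 21 loci outside the naming rule by rank and size, some of them described here for the sex chromosomes or the threshold, held 18 KO members of 9 to 60 tags and 11 WT members of 8 to 73 tags.

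The threshold fell into a gap between input values. The lowest chromosomal members had 2 input tags, 4.81 times the genome-wide level in KO and 5.09 times in WT, and 8 members in each list stood there. Just inside, in KO, was a peak of 9 tags with its summit in the tRNA gene n-TCgca54, near Plxdc1 and Arl5c. The other KO peaks there were inside Atp6v0a2, a proton pump gene (15 tags), and near Gm52862 (32 tags). In WT the peaks just inside were within Cmss1 and Filip1l (17 tags), at n-TTtgt3 (16 tags) and at Gm52481 (15 tags). These 3 in each list come from the 8 that tie at 2 input tags. Just outside, the KO peaks stood at 3.61, 2.89 and 2.89 times, with 12, 17 and 12 tags, the last beside the tRNA gene n-TRccg1. The WT peaks just outside stood at 3.05, 3.05 and 2.55 times, with 10 tags near Thoc1, 14 near Gm52481 and 11 near Fosb. The peaks just outside had 1 to 1.5 input tags, most of them not whole values, against 2 just inside. At most 1 input tag separates these sides, so membership near the threshold rests on counting error.

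The summit lay inside an annotated gene for 22 of 78 KO chromosomal members (28.2%) and 24 of 69 WT ones (34.8%). Over all chromosomal peaks the share was 36.4% of 198 in KO and 55.7% of 352 in WT. No gene lay within 3000 bp for 48 KO members (61.5%) and 35 WT members (50.7%), against 35.4% of all KO and 21.6% of all WT chromosomal peaks. The chromosome 9 block, with 27 KO and 17 WT peaks, makes up much of the members with no gene nearby.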

How the data were processed

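Tet1 ChIP-seq peak lists from KO and WT spermatogonia (1 ChIP and 1 input library each) were analysed. Per the file headers, the authors called peaks with MACS 2.1.1.20160309 on each ChIP against the input of its genotype, with a lenient q cutoff of 0.5, the effective genome size of the human preset and the larger library scaled to the smaller. The genome size sets the genome-wide level and so the multiples given here. ChIP tags after filtering numbered 2235818 in KO and 3081692 in WT, and input tags 3739856 in KO and 3546238 in WT. Per the submitters' processing notes the build was mm10 and the tools were Bowtie2, deepTools, MACS2, SAMtools and Trim Galore; how each was set is not given in the sources used here. The deposited pileup is a signal (extended ChIP tags at the summit), the deposited fold enrichment is a ratio of pileup plus 1 to scaled input background plus 1, and the deposited −log10 p and q values are the authors' own. All peak scores are the authors'.

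Background, input tags, loci, overlaps and pairs were computed from these with Python 3.11.15, pandas 2.3.3, NumPy 2.4.6, SciPy 1.17.1, Biopython 1.88 and matplotlib 3.10.9. Shares have exact binomial (Clopper-Pearson) intervals, tag ratios exact conditional ones, whose coverage was tested on simulated data. No test compares the genotypes. A pair is a KO and a WT peak that overlap each other and no other peak. Gene names come from RefSeq (GRCm38.p6, which has mm10 coordinates). The loci named are mitochondrial DNA and contigs, loci with 3 or more members in a list, the 12 others of highest pileup, the 5 KO-only and 5 WT-only loci of highest pileup, and 3 peaks on each side of the threshold in each list. Other names, the correlations and the sequence windows were chosen after values were seen. The members and lists were chosen with earlier results of these data known. Alternatives changed the input threshold, the peak limits, the overlap, the joining distance and the depth scaling.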

Additional observations from a re-analysis of the deposited data

How the results depend on the processing

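Of 56 values under alternatives, 46 stayed within their interval, their quartiles or 1.5 times the reported count, and 10 moved further. With chromosomal members alone the KO list had 78 members and 65.4% of them were overlapped. With a fold of at least 2 the WT list had 52 members, the overlapped share was 28.1% in KO and 65.4% in WT, and the summed KO/WT ChIP ratio was 1.26. The WT peaks of the chromosome 9 block and JH584304 all have folds below 2 and are lost there. With an overlap of 50% of both peaks the shares were 45.7% in KO and 64.4% in WT, and counting neighbours up to 1000 bp away it was 74.8% in KO. Scaled by ChIP tags before filtering the ratio was 1.38. Correcting pileups for filled start positions, an alternative chosen after seeing the data, gave 1.33, and leaving out the chromosome 9 block and JH584304, also chosen afterwards, gave 1.30. No paired analysis was possible because each genotype has 1 ChIP and 1 input library. Depth limits the low members most, since 1 input tag or less can move a peak across the threshold.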
